A study of Homo sapiens with 3 samples.

Results

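Keratins, cadherins and the genes EPCAM and VIM are the transcripts by which epithelial and mesenchymal cells are usually told apart. This report follows 8 of them in HEK293 cells, listed by symbol: KRT8, KRT10, KRT18, KRT19, CDH1, CDH2, EPCAM and VIM. A row was found for 7 of the 8 among the 12040 genes of the deposited table. CDH1, which encodes E-cadherin, had no row and was not analysed here.

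HEK293 is an established line from human embryonic kidney, and the cells used here were, per the labels, a T-Rex FLP-IN derivative with the construct FLAG:DICER1, shared by all groups; no source used here says whether it was switched on. All cells went through transfection for RNA interference, and 3 groups were made: knockdown of DICER1, knockdown of DROSHA, and mock transfection. Each has 1 library of poly(A) RNA, and every title carries the label 2.5d. The study asked what loss of DICER1 does to transcript levels, with the DROSHA knockdown and the mock transfection as controls. The deposited table has no column names, so its 2 log2 fold change columns are referred to as the first and the second comparison. No label says which knockdown either holds. The targeted genes had these values in the authors' deposited table: DICER1 -1.32 (first) and 0.58 (second), DROSHA -0.11 (first) and -1.65 (second). Each fold change is the log2 ratio of 2 levels after 1 was added to both, and the comparisons share their denominator library. Since each group is a single library, no replicate error can be given and nothing was tested, and a difference between these libraries cannot be told apart from variation between cultures. The words rose, fell and called are kept for genes with a log2 fold change of 1 or more in size, which is 2-fold. The columns of levels match no sample by name, so no level per library is given and the depth is unknown.

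Keratins are intermediate filament proteins that assemble as pairs of one acidic (type I) and one basic (type II) chain. Simple epithelia use KRT8 as the type II chain and KRT18 or KRT19 as the type I partner, while KRT10 is the type I keratin of differentiating epidermis. VIM, vimentin, forms filaments on its own and is the usual intermediate filament of mesenchymal and many cultured cells. Classical cadherins hold neighbouring cells together and are anchored to actin by catenins, E-cadherin in epithelia and N-cadherin (CDH2) in neural and mesenchymal tissue. EPCAM is a surface glycoprotein of epithelial cells. The repressors ZEB1 and ZEB2 silence CDH1 and other epithelial genes, and their transcripts are known targets of the miR-200 family, whose hairpins are cut by DROSHA and DICER1.

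The mature miR-200 family sequences are shown because they tie the depleted enzymes to the repressors of the epithelial program. Libraries of poly(A) RNA do not measure mature miRNAs. The sequences are from RefSeq (GRCh38.p14), 5′ to 3′, with the seed (bases 2 to 8) in capitals. The family falls into 2 seed groups, which differ within the seed: miR-200a and miR-141 share AACACUG, and miR-200b, miR-200c and miR-429 share AAUACUG. Their genes lie on chromosome 1 (miR-200a at chr1:1167916-1167937, miR-200b at chr1:1167160-1167181 and miR-429 at chr1:1169055-1169076, plus strand) and chromosome 12 (miR-200c at chr12:6963742-6963764 and miR-141 at chr12:6964155-6964176, plus strand).
miR-200a-3p: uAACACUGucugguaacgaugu
miR-141-3p: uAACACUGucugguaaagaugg
miR-200b-3p: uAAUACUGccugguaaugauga
miR-200c-3p: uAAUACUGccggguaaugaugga
miR-429: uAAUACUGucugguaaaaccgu

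The matching DNA letters are CAGTGTT for the first seed group and CAGTATT for the second. They were searched on the transcript strand of annotated 3′ UTRs (GENCODE release 29, the transcript with the longest coding sequence per gene). CAGTGTT occurred in 19.99% and CAGTATT in 18.2% of 10240 genes with a 3′ UTR of at least 50 bases. ZEB1 held CAGTATT 6 times and CAGTGTT 3 times in 2549 bases, and ZEB2 held them 5 and 4 times in 5370 bases. None of the 7 measured keratin, cadherin, EPCAM and VIM transcripts held either string in its 3′ UTR, which ran from 59 bases in KRT18 to 1187 bases in CDH2. One site of each repressor is shown with its flanks and the match to the AAUACUG seed in capitals, from position 369 of the ZEB1 3′ UTR and position 392 of the ZEB2 3′ UTR.
ZEB1: tttatcttatCAGTATTatcactctta
ZEB2: taccatacatCAGTATTtttattatta

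The repressors themselves did not pass 2-fold. The authors' deposited table lists ZEB1 at 0.25 (first comparison) and 0.03 (second), and ZEB2 at 0.32 and 0.29. All 4 values lay above 0, as did 56.5% of all genes in the first and 51.1% in the second comparison. Over all genes, those with CAGTATT in the 3′ UTR had medians of -0.01 (first) and 0.06 (second), against 0.04 and -0.00042 for those without. For CAGTGTT the medians were 0.005 and 0.039, against 0.038 and 0.0005. Fold changes varied with GC content (Spearman rho 0.39 in the first comparison, -0.28 in the second), and neither contrast was corrected for it. Subtracting the median of genes of like GC content put ZEB1 at -0.08 in the second comparison, so its sign there depended on that choice. SNAI1, another repressor of CDH1, had values of -0.13 and -0.02 in the authors' deposited table.

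The simple keratins parted in the second comparison. KRT19 alone of the 7 genes fell, at -1.07 in the authors' deposited table, which is 47.6% of the denominator after the added 1. Only 62 of 12040 genes were lower, and 0.748% of all genes fell by this rule in that comparison, against 0.0831% that rose. KRT8 stood at -0.50 in the authors' deposited table, a ratio of 0.706, with 5.53% of all genes lower. KRT18, which pairs with KRT8, was at 0.01 in the authors' deposited table, near the median of all genes (0.01). The 3 chains of simple epithelia thus spanned 1.08 log2 units between KRT19 and KRT18.

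The call of KRT19 lay close to the threshold. Genes of higher GC content had lower fold changes in the second comparison (Spearman rho -0.28 across 10581 genes, which are not independent replicates and share 1 pair of libraries). KRT19 has 61.8% GC in its annotated transcript and lies in the ninth of 10 equal bins, whose median was -0.07. Relative to that median KRT19 was at -0.999, just inside the threshold, so the call ended there while the direction stayed. KRT8 (60.2% GC) was at -0.43 and KRT18 (60.5% GC) at 0.08 relative to the same bin, so all 3 simple keratins were set against the same genes.

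In the first comparison no keratin of the 4 passed 2-fold. The authors' deposited table gave KRT8 -0.10, KRT18 -0.01, KRT19 -0.09 and KRT10 -0.10. These values lie within 0.10 of each other, all just below 0 and below the median of all genes (0.03). The 5% and 95% quantiles of all genes were -0.34 and 0.35, so the 4 keratins sat in the middle of the distribution. Relative to genes of like GC content they were lower, at -0.22 for KRT8, -0.21 for KRT19, -0.14 for KRT10 and -0.12 for KRT18.

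KRT10 went apart from the simple keratins in the second comparison. It was at 0.18 in the authors' deposited table, where 22.9% of all genes were higher. It was thus the highest of the 7 genes there and KRT19 the lowest.

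**Figure D1:**
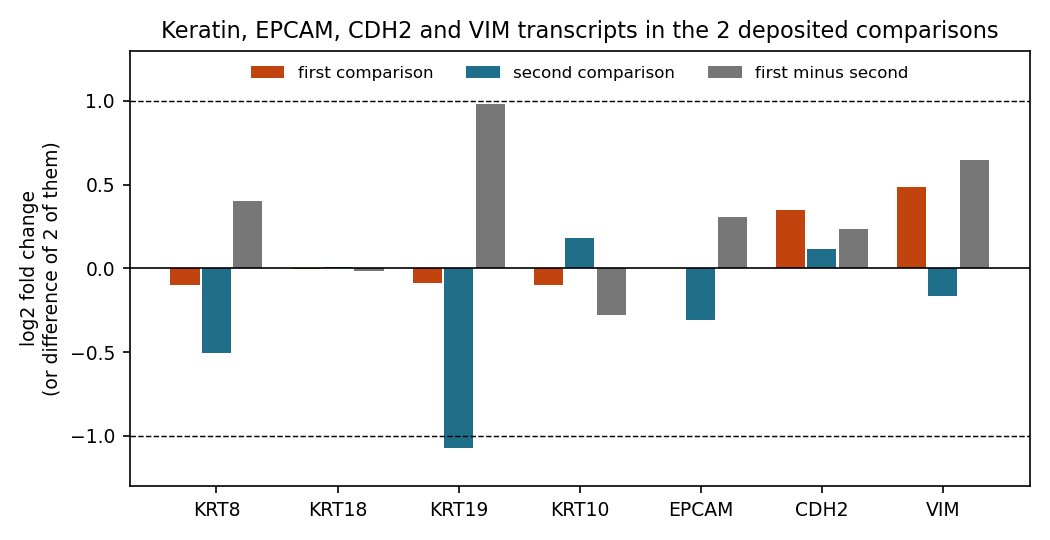
Log2 fold change of each gene in the first (orange) and second (blue) comparison and the first minus the second (grey), as bars from 0, with dashed lines at 1 and -1 and 1 library per group. KRT19 at -1.07 in the second comparison is the only bar past a dashed line, and VIM has the highest bar of the first comparison at 0.48.

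VIM and CDH2, the mesenchymal genes of the set, were the highest of the 7 in the first comparison, below 2-fold. VIM was at 0.48 in the authors' deposited table, a ratio of 1.40, and 197 of the 12040 genes were higher. CDH2 was at 0.35 in the authors' deposited table, a ratio of 1.28, with 622 genes higher. Both therefore lay in the upper tail, CDH2 just at its edge, since 5.17% of all genes were higher. None of the 7 rose and none fell in that comparison, where 0.174% of all genes rose and 0.166% fell.

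In the second comparison the pair came apart in sign. VIM was at -0.16 and CDH2 at 0.12 in the authors' deposited table, both inside the middle range of all genes (5% and 95% quantiles of -0.52 and 0.41). The authors' deposited table lists EPCAM at 0.0025 (first) and -0.31 (second). It was near the middle of all genes in the first and had 14.1% of genes below it in the second. No epithelial gene of the set was above 0.01 in either comparison other than KRT10, a keratin of epidermis, at 0.18.

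The first minus the second fold change sets the numerator libraries directly against each other, and the shared denominator cancels. KRT19 had the highest difference of the 7, 0.98, with 172 genes higher, and VIM followed at 0.65. Then came KRT8 at 0.40, EPCAM at 0.31 and CDH2 at 0.23, while KRT18 was at -0.02 and KRT10 at -0.28. None reached 1 in size, where 1.31% of all genes were higher and 0.349% lower by that rule. The difference was positive in 5 of the 7 genes, among them both epithelial and mesenchymal ones, and in 53.4% of all genes. KRT19 and VIM came to it by different routes, KRT19 from a low value in the second comparison and VIM from a high one in the first.

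Lower thresholds added KRT8 in the second comparison, and KRT19 and VIM in the difference. At 1.5-fold the second comparison still held KRT19 alone and the first held none, where 5.07% and 2.17% of all genes passed. At a log2 fold change of 0.5 in size KRT8 joined KRT19 in the second comparison, against 7.92% of all genes, and the first held none, against 3.5%. In the difference KRT19 and VIM passed both thresholds, which 9.13% and 13.4% of all genes passed.

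Likeness between genes was measured as the Euclidean distance in the plane of the 2 fold changes. KRT18 was 0.52 from its partner KRT8, and 5006 genes lay nearer to KRT8 than KRT18 did. EPCAM was the nearest of the set to KRT8, at 0.22, with 798 genes nearer. VIM and CDH2 were 0.31 apart, and 1078 genes were nearer to VIM. KRT19 was the furthest of the 7 from no change (1.07), and ARMCX2 and EFNB3 were among its 3 nearest genes, each at a distance of 0.05. With only 2 comparisons behind it, this likeness says that the values are close and no more.

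**Figure D2:**
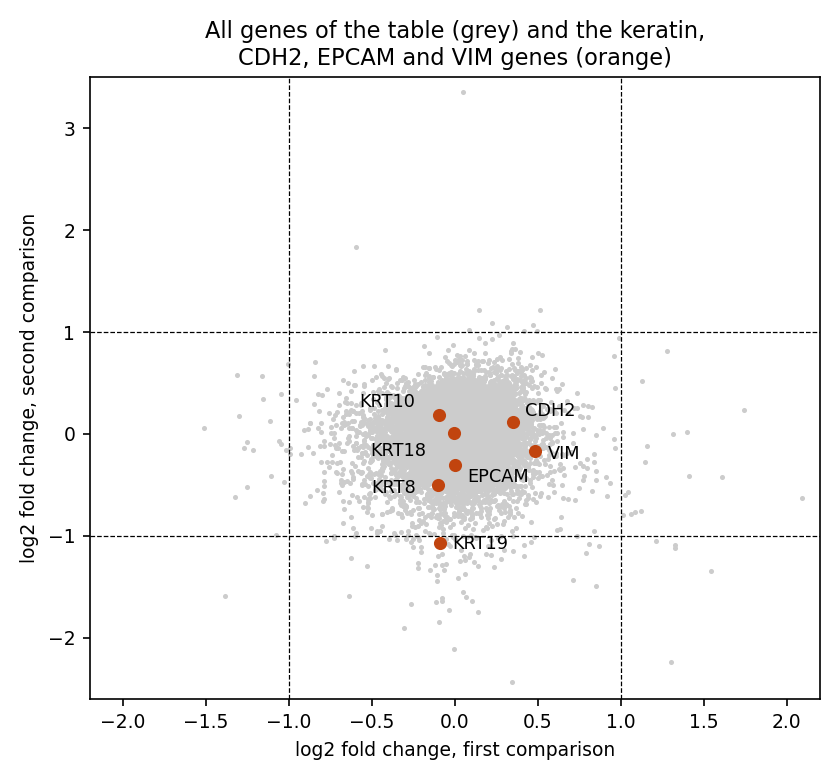
Each point is 1 gene, with its log2 fold change in the first comparison on the x axis and in the second on the y axis, for all 12040 genes in grey and the 7 genes in orange, with dashed lines at 1 and -1. KRT19 lies at -1.07 on the y axis below the main cloud, and VIM and CDH2 lie towards its right edge at 0.48 and 0.35 on the x axis.

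Several of these transcripts have near-identical copies or overlapping neighbours, which makes their values uncertain. GENCODE release 29 names 68 pseudogenes of KRT18, 50 of KRT8 and 5 of KRT19, and no source used here says how reads shared with them were counted. KRT8 and KRT18 are neighbours on chromosome 12 with no protein-coding gene between them and overlap on opposite strands. No source used here says whether counting used the strand, so reads in that overlap cannot be told apart. TMEM99 overlaps KRT10 on the opposite strand and had values of -0.30 and -0.31 in the authors' deposited table, against -0.10 and 0.18 for KRT10. KRT19 has no annotated overlapping gene. VIM is overlapped by VIM-AS1 and AL133415.1 on the opposite strand, and CDH2 and EPCAM also have annotated overlapping genes. None of the genes that overlap VIM, CDH2 or EPCAM had a row.

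Among the wider keratin family few symbols had a row. Of 35 keratin symbols looked for, 5 were listed, and the fifth, KRT222, fell in the first comparison, at -1.02 in the authors' deposited table. For the second comparison the authors' deposited table lists it at -0.16. KRT222 is a keratin-like gene of chromosome 17 with 37.4% GC, and relative to genes of like GC content it was at -0.94 in the first comparison, so that call ended. Its 3′ UTR holds AATCTAA once, at position 166, a string that 11.4% of 10240 3′ UTRs hold and that was picked out earlier because its carriers were low in the first comparison. The site is shown because KRT222 is the keratin that fell there. As the string was picked from these same fold changes, its presence is no support, and a link to the fall was not tested.
KRT222: catttctctgAATCTAAttatggagat

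The annotated 3′ UTRs of the 7 genes held neither AATCTAA nor the 3 other strings picked out earlier from these same fold changes. Those were CAATCTA, which overlaps AATCTAA, and the overlapping pair of GTGACTT and TGACTTA. KRT19, the member that fell, has a 3′ UTR of 126 bases.

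The other intermediate filament genes were split between the comparisons. Of 16 symbols 9 had a row, including VIM. In the first comparison 8 of the 9 were above 0, and in the second all 9 were below 0. Of all genes 56.5% and 51.1% were above 0. Fold changes varied with GC content in opposite directions in the 2 comparisons (Spearman rho 0.39 and -0.28). Relative to genes of like GC content BFSP1 was at 0.02 in the second, so not all 9 stayed below 0. Their medians were 0.23 (first) and -0.14 (second), against 0.03 and 0.01 for all genes. INA, alpha-internexin of neurons, alone rose in the first comparison, at 1.05 in the authors' deposited table, and was at -0.57 in the second. NEFL, the light neurofilament chain, had values of 0.65 and -0.33 in the authors' deposited table. The nuclear lamins, which line the nuclear envelope in all cells, were at 0.31 and -0.16 for LMNB2, 0.17 and -0.14 for LMNB1, and -0.0045 and -0.11 for LMNA in the authors' deposited table. VIM came next after INA and NEFL in the first comparison. PRPH, peripherin, another neuronal filament gene of the list, was lower than VIM there, with values of 0.14 and -0.12 in the authors' deposited table.

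The medians of neuronal markers had the same signs as VIM. Of 7 neuronal markers 6 had a row, with medians of 1.17 (first) and -0.69 (second). In the first comparison all 6 were above 0 and 4 rose, against 56.5% and 0.174% of all genes. In the second 5 were below 0 and 2 fell, where 51.1% of all genes were above 0 and 0.748% fell. SNAP25, a protein of synaptic vesicle fusion, had 0.24 there in the authors' deposited table. These markers were chosen with earlier results of these data known. INA and NEFL belong to both lists. The part of such a shift in the values of VIM and of the filament list was not tested. In bulk RNA a change in the share of cells and a change in RNA per cell cannot be told apart.

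Of 23 symbols of classical and related cadherins 5 had a row and none was called in either comparison. CDH24 was the highest in the first comparison at 0.52, and CDH23 the lowest in the second at -0.58, both in the authors' deposited table. CDH3, P-cadherin of epithelia, had values of -0.00097 and -0.44 in the authors' deposited table. All 5 had a positive difference between the first and the second comparison, from 0.23 in CDH2 to 0.49 in CDH23. The same was true of 53.4% of all genes. Of these 5, CDH2 was therefore the one whose deposited values differed least between the comparisons. Relative to genes of like GC content the smallest difference was that of CDH24, at 0.14, and CDH2 was at 0.30. The place of CDH2 thus depended on that choice.

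Protocadherins and giant cadherins held 12 measured genes of 45 symbols. CELSR3, a seven-pass cadherin of neurons, alone rose in the first comparison, at 1.61 in the authors' deposited table, and it was at -0.42 in the second. PCDH7 went the other way, with values of -0.65 and 0.35 in the authors' deposited table, so its difference was -1.003. The list's medians were 0.11 and -0.07.

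Genes of the junction complexes stayed under 2-fold in both comparisons. Among 11 measured catenin and adherens junction genes the medians were -0.04 and -0.01. The authors' deposited table had CTNNB1, beta-catenin, at 0.04 and -0.01, and CTNNA1, alpha-catenin, at 0.09 and -0.05. CTNND1, p120-catenin, which holds cadherins at the surface, had values of -0.26 and 0.18 in the authors' deposited table. ARVCF, a relative of p120-catenin, was the lowest of them in the second comparison at -0.68 in the authors' deposited table. The desmosome list, whose plaque proteins tie keratin filaments to the membrane, had 8 measured genes with medians of 0.13 and 0.10. DSP, desmoplakin, which binds keratin filaments, was the highest of them in the first comparison at 0.35, and DSG2, a desmosomal cadherin, the lowest in the second at -0.82, both in the authors' deposited table.

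Of 42 symbols for tight junction and polarity genes 22 had a row, with medians of 0.07 and 0.04. TJP1, a scaffold protein of tight junctions, had values of -0.08 and 0.03 in the authors' deposited table. CLDN12, a claudin, was the lowest of them in the first comparison and the highest in the second, with values of -0.38 and 0.46 in the authors' deposited table. None of the 22 was called in either comparison.

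Epithelial regulators and surface proteins had 10 measured genes of 27 symbols, EPCAM among them, and none was called. Their medians were 0.03 and -0.21, and in the second comparison 7 of the 10 were below 0 (all genes: median 0.01, with 51.1% above 0). CD24, a surface glycoprotein, was the lowest of them in the second comparison at -0.65 in the authors' deposited table. KLF4, a transcription factor of epithelia, was the highest there at 0.29 in the authors' deposited table. ESRP2, a splicing factor of epithelial cells, had values of -0.00093 and 0.04 in the authors' deposited table.

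On the mesenchymal side 23 of 39 symbols had a row, with medians of 0.15 and -0.02. FSTL1, a secreted glycoprotein of mesenchymal cells, alone fell, and it did so in both comparisons, with values of -1.39 and -1.59 in the authors' deposited table. Its 3′ UTR of 4659 bases holds CAGTATT 2 times, CAATCTA once, overlapped by AATCTAA, and also GTGACTT once. It does not hold CAGTGTT or TGACTTA, and a link of these strings to the fall of FSTL1 was not tested. FN1, fibronectin, was at 0.20 and -0.10, and TWIST1, a repressor of CDH1, had values of 0.16 and -0.11 in the authors' deposited table. VIM, CDH2 and FN1, the mesenchymal markers with a row among 10, were all above 0 in the first comparison, and CDH2 alone was above 0 in the second.

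**Figure D3:**
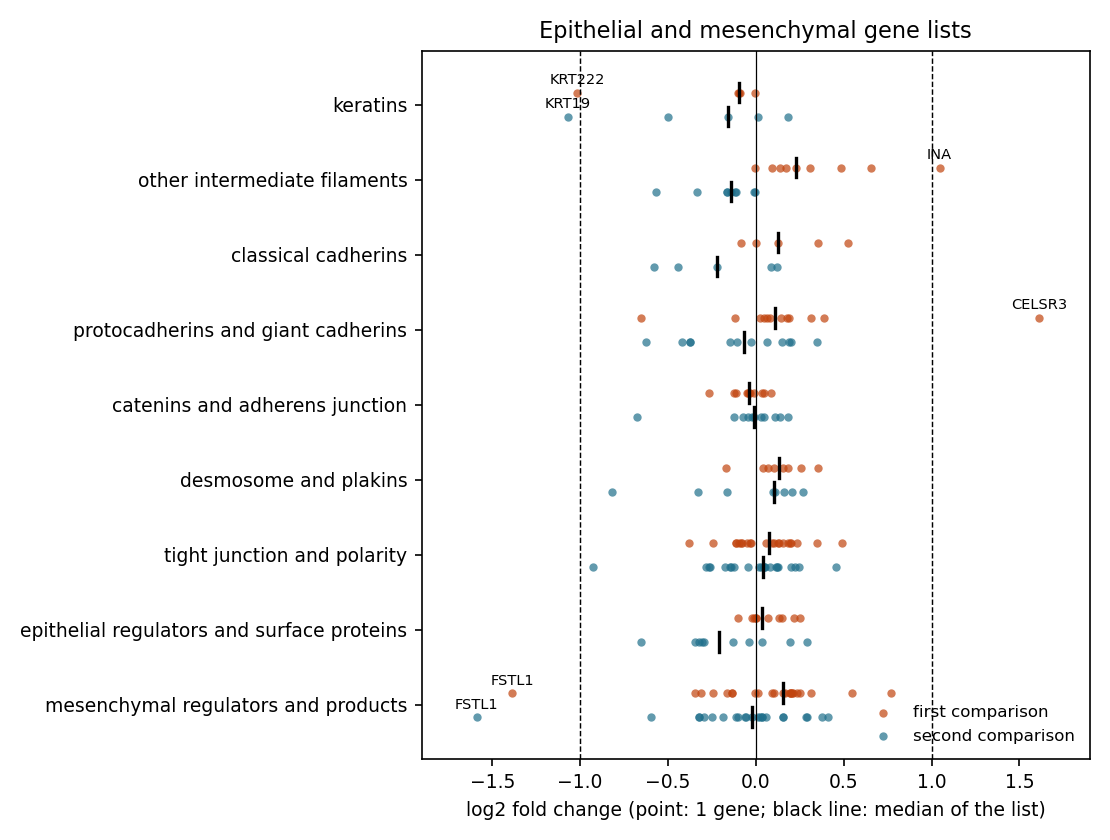
Log2 fold change on the x axis for every measured gene of 9 lists (rows), first comparison in orange and second in blue, with a black line at each median and dashed lines at 1 and -1. Only KRT222, KRT19, INA, CELSR3 and FSTL1 lie past a dashed line, and the intermediate filament list has medians of 0.23 (orange) and -0.14 (blue).

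The label of the line was set against markers. Of 11 epithelial markers 5 had a row (KRT8, KRT18, KRT19, EPCAM and ESRP2), while CDH1, CLDN3, CLDN4, CLDN7, ESRP1 and GRHL2 had none. Mesenchymal markers had a row for 3 of 10 and markers of kidney or embryonic lines for 2 of 5, LIN28B and WT1. Blood and endothelial markers had a row for 0 of 4 each. The table lists only genes whose denominator level was above 1, so a gene without a row was not analysed here, and nothing follows about its expression. The set is thus a mixture of simple keratins and EPCAM with VIM and CDH2, and E-cadherin, the defining adhesion molecule of epithelia, could not be followed.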

How the data were processed

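The deposited table lists 12040 genes with no header line. Per the submitters' processing notes, the tools were TopHat2 2.06, Cuffdiff 2.1.1, Cufflinks, CASAVA 1.8.2 and SAMtools and the build was hg19, with no step given for each. Its 2 columns of log2 fold changes were made by the authors, and a test on the values found both to be the log2 ratio of levels after 1 was added (all 12040 genes within 1e-11). The 3 level columns have no names, match no sample and served that test alone, so alternatives that need levels were not run. The members and lists were chosen with earlier results of these data known. The text names every listed member, the genes called in a list, its highest and lowest genes, and chosen after their values were seen, a few others for their role. Some results under this rule are not reported here. Analysis used Python 3.11.15 with pandas 2.3.3 and was tested on simulated data. GC content and 3′ UTRs came from GENCODE release 29 (GRCh38), matched by symbol for 10581 genes (87.9%).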

Additional observations from a re-analysis of the deposited data

Results flagged for a closer look

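The following genes had opposite signs in the first and second comparison, each in 1 library, and the difference itself was not tested. The first minus the second log2 fold change was 0.649 for VIM, 0.308 for EPCAM, -0.278 for KRT10 and -0.0155 for KRT18, where KRT18 was within 0.01 of 0 in both. Among the genes called in a comparison, in the lists other than the cell type markers, it was 2.04 for CELSR3 and 1.61 for INA. Of the neuronal markers, STMN3 (3.54) and SYP (2.89) were also called and had opposite signs.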

How the results depend on the processing

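No paired analysis was possible because each group has 1 library. Alternatives with another pseudocount (0.1 or 5) and with a minimum mean level of 5 were not run, since the level columns match no sample. Subtracting the median of all genes moved no count of called genes. The correction for GC content was chosen after seeing the data; it left 0 of the 7 genes called lower in the second comparison (1 without it, KRT19) and 1 other listed gene called lower in the first (2 without it, KRT222 being lost). It moved 7 of 21 single values of the 7 genes by 0.1 or more, all downwards, by -0.18 to -0.10, and changed the sign of no called value. At 0.5, 2 of the 7 genes were lower in the second comparison, and at 0.5 and at 1.5-fold 2 were higher in the difference. Among the 98 other listed genes, 4 (at 1.5-fold) and 6 (at a log2 fold change of 0.5) were higher in the first comparison, against 2 at 1. There 3 and 3 were lower, against 2 at 1. In the second, 7 and 9 were lower, against 1 at 1, and 0 were higher. In the difference 10 and 14 were higher and 3 and 3 lower, against 3 and 1 at 1. Of all genes, in either direction, 2.17% and 3.5% passed these 2 lower thresholds in the first comparison. The shares were 5.07% and 7.92% in the second and 9.13% and 13.4% in the difference. Single libraries with unknown depth limit every value here.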
